A study of Mus musculus with 8 samples.

Results

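Death receptors of the TNF family and the proteins that carry their signal were examined in mouse acute myeloid leukemia (AML). The set is 10 genes chosen by their known function, with earlier results of these data known. It holds the receptors Tnfrsf1a, Fas and Tnfrsf10b, the adaptor Fadd, and the protease Casp8 with its inhibitor Cflar. The others are the kinases Ripk1 and Ripk3, the membrane-disrupting protein Mlkl, and the granzyme B inhibitor Serpinb9. Rows were taken by gene name, and all 10 genes were found among the 12823 rows of the table. New and aggressive AML cells were compared. The 4 new AML libraries came from bone marrow progenitors that had been transduced with MLL-AF9, a fusion of KMT2A and MLLT3, together with GFP, and that gave AML in sublethally irradiated wild-type mice. The 4 aggressive AML libraries came from leukemia cells that had since been transplanted serially 5 times, into non-irradiated mice. All cells of both groups carried the MLL-AF9 vector and GFP, were grown in C57BL/6 mice, and were collected from bone marrow as GFP-positive cells. Recipients in the study were 8 to 12 weeks old, and the labels name no drug and no sequencing batch for these groups. The mice of both groups are described as male. The labels describe aggressive AML as derived from the new AML cells, and it is not stated whether its 4 libraries come from separate lines of passage. The Y-linked genes Ddx3y, Eif2s3y, Kdm5d and Uty, however, summed to 250.9 to 286.9 CPM in new AML and had 0 counts in every aggressive AML library. The groups thus differ in Y-linked RNA as well as in the number of transplantations. Whether the Y-linked difference arose during the passages was not tested. What goes with this difference cannot be told apart from serial transplantation in any comparison below.

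A death receptor that binds its ligand gathers Fadd and Casp8 into a complex at the membrane, where caspase-8 activates itself and then the executioner caspases. TNF receptor 1, the product of Tnfrsf1a, first builds a different complex with Tradd, Traf2 and Ripk1, in which chains of ubiquitin hold back cell death and favour NF-kB. Where caspase-8 is blocked, Ripk1 and Ripk3 join through a shared motif, Ripk3 phosphorylates Mlkl, and Mlkl opens the plasma membrane, a lytic death called necroptosis. T cells and NK cells use both Fas ligand and granzyme B to kill, and Serpinb9 inactivates granzyme B. In leukemia this machinery can contribute to how a cell responds to killer lymphocytes and to inflammatory cytokines.

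Between new and aggressive AML, Tnfrsf1a fell and Mlkl rose, and these were the only calls among the 10 genes in the edgeR test over all genes. Tnfrsf1a was 0.732 times as high in aggressive AML and Mlkl 1.28 times as high. Of 12494 tested genes 18.4% were called, 8.15% higher and 10.2% lower, so that 2 calls among 10 genes is a share near that of the table. All 10 genes passed the filter on low counts. The median log2 fold change of the 10 was -0.12, against 0.00 over all tested genes. The CPM ranges of the groups did not overlap for 5 of the 10, where this held for 21.8% of tested genes. An unadjusted p under 0.05 was found for 7 of the 10 and for 32.6% of tested genes.

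The promoters of the called genes are shown as the RefSeq windows (GRCm38.p6) from 250 bases before to 50 bases after a RefSeq gene start, because interferon-stimulated genes fell in the same libraries and Mlkl is known as an interferon-inducible gene. Capitals mark matches to the core of the interferon-stimulated response element, written here as GAAA, any 2 bases and GAAA, or to TTCNNNGAA, the interferon gamma activated site, searched on both strands.
Tnfrsf1a, chr6:125349473-125349772, plus strand: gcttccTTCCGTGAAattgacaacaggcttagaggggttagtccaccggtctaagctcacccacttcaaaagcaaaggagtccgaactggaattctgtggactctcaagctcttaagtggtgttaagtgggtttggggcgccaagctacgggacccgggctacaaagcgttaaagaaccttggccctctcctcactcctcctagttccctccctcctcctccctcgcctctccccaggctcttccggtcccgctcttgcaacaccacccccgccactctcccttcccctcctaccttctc
Mlkl, chr8:111338156-111338455, minus strand: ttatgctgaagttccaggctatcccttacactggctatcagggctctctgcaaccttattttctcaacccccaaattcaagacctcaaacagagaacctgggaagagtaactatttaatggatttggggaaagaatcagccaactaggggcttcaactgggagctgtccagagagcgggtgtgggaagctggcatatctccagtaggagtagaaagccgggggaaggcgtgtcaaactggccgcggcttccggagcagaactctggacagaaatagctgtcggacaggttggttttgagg
The Tnfrsf1a window held one TTCNNNGAA match at its far end, and the Mlkl window held neither set of letters. RefSeq starts can differ from the GENCODE gene spans given with each gene below, so that the windows of Tnfrsf1a, Serpinb9 and Ripk1 in which matches were found lie inside those spans. Windows were found for 9 of the 10 genes. The response element core stood in the windows of Cflar, Serpinb9 and Ripk1, that is 3 of the 9, and in 3.44% of 32851 promoter windows. Among the interferon-stimulated genes described below, 9 of 13 with a window held it. TTCNNNGAA stood in 3 of the 9 as well, in Tnfrsf1a, Fas and Ripk1, in 8.30% of all windows and in 2 of the 13 interferon-stimulated genes. The shares of all windows are counted per window, whereas members and interferon-stimulated genes are counted per gene, so that the shares are not of one kind. The matches to the response element core are shown with 10 bases on each side, to set them beside the windows of the called genes, and none of the 3 genes that carry them was called. In Ripk1 the match overlaps a TTCNNNGAA match.
Cflar, chr1:58711487-58711516, plus strand: ccacgtctgcTTTCGGTTTCtgggcgtctc
Serpinb9, chr13:33004485-33004514, plus strand: ctcctgctacTTTCACTTTCtctaaggacc
Ripk1, chr13:34002859-34002888, plus strand: aacgttcccgGAAATCGAAAagcgcggaac
A match describes the letters of a window and not the binding of a factor.

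Total counts were 7805544 to 9697777 per library, and 1 count was worth 0.103 to 0.130 CPM, the count scaled to library size with TMM factors. All 10 markers of myeloid leukemia cells were tested, with a summed level of 3667 to 5058 CPM, and 5 were called. Kit and Meis1 rose, by log2 fold changes of 0.65 and 0.45, and the myeloid differentiation genes Csf1r, Itgam and Spi1 had values of -1.70, -0.61 and -0.25 and were called lower. The defining T cell genes Cd3d, Cd3e and Cd3g and the NK cell gene Ncr1 were not analysed here. The 2 T cell markers tested, Lck and Bcl11b, summed to 7.80 to 9.54 CPM in new AML and 6.35 to 21.4 CPM in aggressive AML, and 1 of them was called higher. The 2 NK cell markers, Klrk1 and Nkg7, summed to 15.0 to 27.8 CPM and 25.8 to 33.0 CPM, and 1 was called higher. Of 9 neutrophil markers 7 were called lower, with sums of 299.8 to 447.8 CPM against 148.1 to 197.0 CPM. Of 4 tested macrophage markers 1 was called lower, with sums over the 5 measured of 225.6 to 280.2 CPM against 173.7 to 240.6 CPM. The part of these differences in the results below was not tested, and in bulk samples fewer cells of a type cannot be told apart from less RNA per cell. Of 4 measured B cell markers 2 were tested and 1 was called lower, with sums of 40.2 to 45.4 CPM against 30.6 to 34.0 CPM. Of 8 erythroid markers 6 were tested and 2 were called lower, with sums of 22.5 to 80.7 CPM against 9.31 to 41.2 CPM. New AML replicate 3 had the highest level of interferon-stimulated genes, and aggressive AML replicate 3 stood apart from its group on the second principal component.

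The receptors were expressed at very different levels. Tnfrsf1a, which encodes the main receptor for TNF, lies on chromosome 6 (125349362 to 125362484, plus strand, GRCm38) and overlaps no other annotated gene. It measured 129.5, 120.2, 107.5 and 118.7 CPM in new AML replicates 1 to 4 and 90.7, 82.0, 70.1 and 105.4 CPM in aggressive AML replicates 1 to 4. Each new AML library lay above each aggressive AML library, although new AML replicate 3 and aggressive AML replicate 4 came close to each other. The means were 119.0 ± 9.02 and 87.04 ± 14.9 CPM (SD, n = 4 each). On the log2 scale Tnfrsf1a fell by 0.45, with an SE of 0.11 and a 95% interval of -0.68 to -0.22 (edgeR, adjusted p = 0.00998). The call held in each of the 8 fits that left out 1 library, with adjusted p-values of 0.00233 to 0.0361. The log2 fold change was -0.36 without aggressive AML replicate 3, the lowest library. Neutrophils also express Tnfrsf1a, and 7 of 9 neutrophil markers were lower in aggressive AML, as given above, a relation that was not tested.

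Fas, the receptor for Fas ligand and a known p53 target (chromosome 19, 34290666 to 34327772), was among the lowest genes of the set. Its counts were 22, 17, 15 and 34 in new AML and 14, 9, 12 and 9 in aggressive AML. These correspond to 2.26, 2.02, 1.67 and 3.79 CPM and to 1.69, 1.06, 1.55 and 1.02 CPM. The ranges met, with new AML replicate 3 just under aggressive AML replicate 1, and new AML replicate 4 was the highest library. The fitted log2 fold change of Fas was -0.87, with an SE of 0.36 and an interval of -1.63 to -0.11 (adjusted p = 0.102), and it was -0.58 without new AML replicate 4 (adjusted p = 0.309). A difference in Fas was therefore not called at this depth of 9 to 34 counts per library. Tnfrsf10b, the mouse receptor for TRAIL (chromosome 14, 69767472 to 69784411), was likewise low, at 5.23, 5.94, 5.69 and 3.68 CPM in new AML and 5.66, 6.48, 6.48 and 4.32 CPM in aggressive AML. The groups overlapped. Its log2 fold change was 0.16 (interval -0.33 to 0.64, adjusted p = 0.674).

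**Figure D1:**
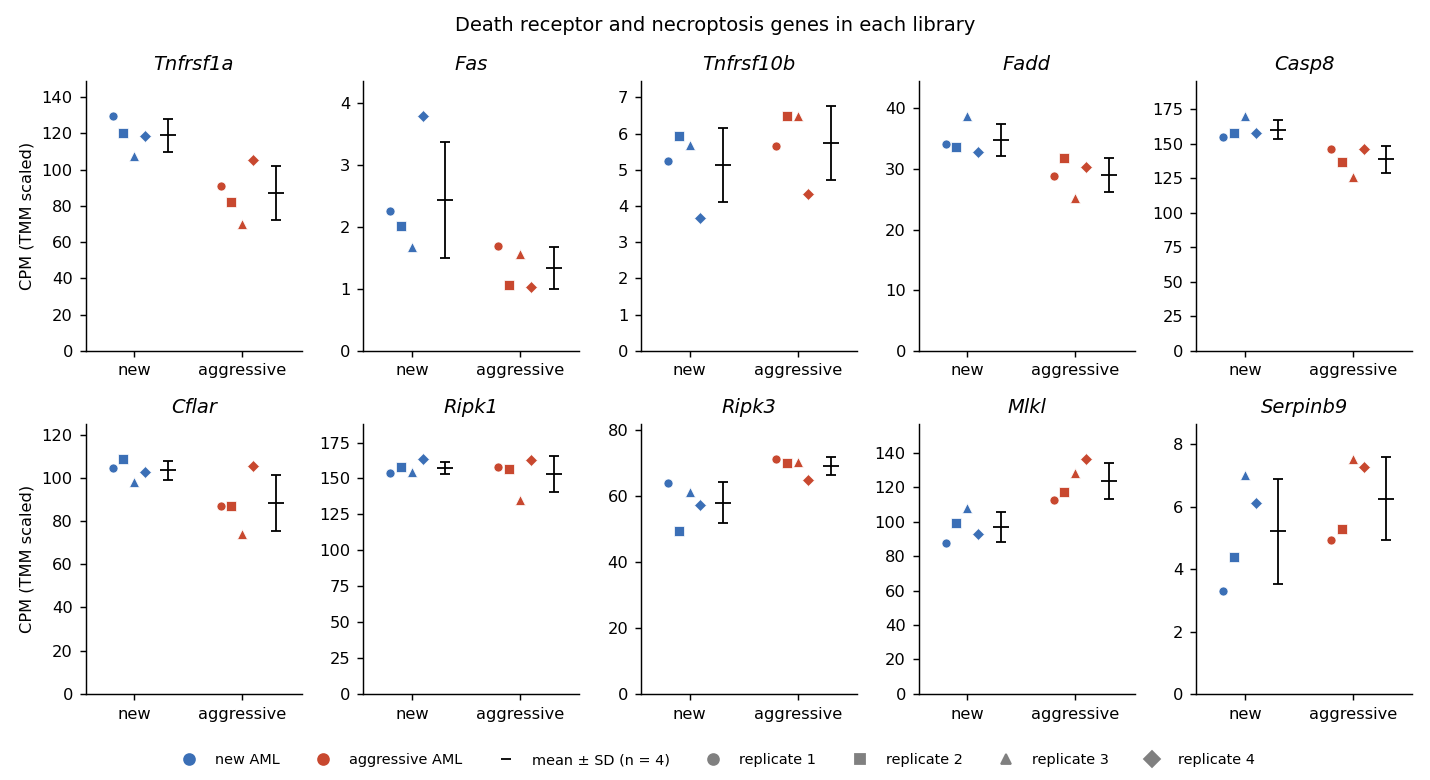
Level of each of the 10 genes in each library, in CPM scaled by TMM factors (y axis, each from 0), for new AML and aggressive AML on the x axis. Symbols mark the replicates and bars the mean ± SD (n = 4). The groups are apart in Tnfrsf1a, Fadd, Casp8, Ripk3 and Mlkl.

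The adaptor, the protease and its inhibitor were each somewhat lower on average in aggressive AML, and none was called. Fadd, which joins receptors to Casp8 (chromosome 7, 144577318 to 144582463), measured 34.1, 33.6, 38.7 and 32.8 CPM in new AML and 28.9, 31.8, 25.3 and 30.3 CPM in aggressive AML. The groups did not overlap. Its log2 fold change was -0.26 (SE 0.11, interval -0.49 to -0.028, adjusted p = 0.110), and it overlaps the antisense gene Faddos, whose reads cannot be separated without a stated strand setting.

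Casp8, the initiator caspase of death receptors and the brake on necroptosis (chromosome 1, 58795374 to 58847503), measured 155.3, 158.0, 170.1 and 158.3 CPM in new AML. In aggressive AML it measured 146.4, 136.6, 126.1 and 146.4 CPM. The groups did not overlap. Casp8 had a log2 fold change of -0.21 (SE 0.075, interval -0.37 to -0.047) at an adjusted p of 0.0674, and no alternative called it (adjusted p = 0.0511 to 0.145). Cflar, which encodes the caspase-8 inhibitor c-FLIP, is the preceding coding gene on chromosome 1 (58711508 to 58758884) and ends 36490 bases before Casp8 begins. Its levels were 104.7, 108.5, 97.9 and 102.8 CPM in new AML and 87.0, 86.8, 74.1 and 105.4 CPM in aggressive AML. Aggressive AML replicate 4 lay inside the new AML range, and the other 3 libraries lay below it. Cflar had a log2 fold change of -0.23 (SE 0.097, interval -0.43 to -0.020, adjusted p = 0.117). Without aggressive AML replicate 4, the highest of its group, the value was -0.32 and the gene was called (adjusted p = 0.0245). Without aggressive AML replicate 3, the lowest, it was -0.15 (adjusted p = 0.265), so that the value depended on single libraries in both directions.

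Neither kinase of the necrosome was called. Ripk1, the kinase of the TNF receptor complex (chromosome 13, 34002363 to 34037147), measured 154.1, 158.1, 154.4 and 163.3 CPM in new AML and 158.3, 156.4, 134.9 and 163.2 CPM in aggressive AML. Apart from the low aggressive AML replicate 3, the libraries of the groups lay within the same range. Its log2 fold change was -0.039 (SE 0.076, adjusted p = 0.760) with an interval of -0.20 to 0.12, and it was 0.021 without aggressive AML replicate 3. Ripk1 thus had the narrowest interval around no change among the uncalled genes whose interval included 0. Its first 432 bases overlap Serpinb6a on the other strand.

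Ripk3, the kinase that activates Mlkl (chromosome 14, 55784995 to 55788865), measured 63.8, 49.5, 61.3 and 57.4 CPM in new AML and 71.1, 70.1, 70.4 and 64.9 CPM in aggressive AML. Every aggressive AML library lay above every new AML library. Its log2 fold change of 0.25 (SE 0.093, interval 0.053 to 0.45) did not reach the threshold (adjusted p = 0.0728, and 0.0575 to 0.238 under the alternatives). The value was 0.18 without new AML replicate 2, the lowest library.

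Mlkl, the executioner of necroptosis (chromosome 8, 111311797 to 111338177), was the only gene of the set called higher. It measured 87.5, 99.0, 107.6 and 92.8 CPM in new AML and 112.6, 117.1, 128.1 and 136.1 CPM in aggressive AML. Each aggressive AML library exceeded each new AML library. The means were 96.8 ± 8.63 and 123.5 ± 10.6 CPM (SD, n = 4 each), with a log2 fold change of 0.35 (SE 0.089, interval 0.16 to 0.54, adjusted p = 0.0121). The call held in each fit that left out 1 library, with log2 fold changes of 0.31 to 0.41 and adjusted p-values of 0.00690 to 0.0446. Mlkl overlaps the processed pseudogene Gm45712 on the other strand.

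Serpinb9, the inhibitor of granzyme B (chromosome 13, 33003250 to 33017957), was low in both groups, with 32 to 64 counts per library. It measured 3.28, 4.40, 7.03 and 6.13 CPM in new AML and 4.94, 5.30, 7.52 and 7.28 CPM in aggressive AML. The groups overlapped, and the spread within new AML was 32.3% of its mean. The log2 fold change was 0.27 (interval -0.28 to 0.82, adjusted p = 0.510). Serpinb9 belongs to a cluster of close copies on chromosome 13, with which it can share reads.

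**Figure D2:**
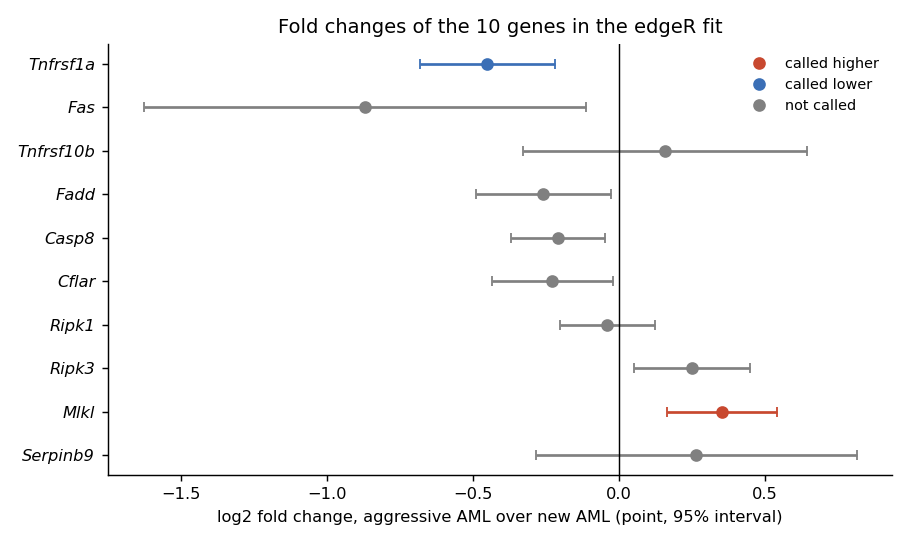
Log2 fold change of aggressive AML over new AML (x axis) for the 10 genes (y axis), as points with 95% intervals from the edgeR fit that are not adjusted for the number of genes. Red marks a gene called higher, blue a gene called lower and grey a gene not called. Only Tnfrsf1a at -0.45 and Mlkl at 0.35 were called, while the intervals of Fas, Fadd, Casp8, Cflar and Ripk3 exclude 0 before adjustment.

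Levels were compared between genes as CPM per kilobase of exon, with the exon length of all GENCODE transcripts of a gene joined. In new AML the order was Casp8 (55.4 ± 2.28), Tnfrsf1a (45.9 ± 3.48), Mlkl (42.01 ± 3.75), Ripk3 (25.3 ± 2.74), Ripk1 (18.9 ± 0.515), Fadd (8.92 ± 0.681), Cflar (8.17 ± 0.349), Serpinb9 (1.49 ± 0.482), Fas (1.18 ± 0.453) and Tnfrsf10b (0.942 ± 0.186). The ranges of the 4 libraries overlapped between Tnfrsf1a and Mlkl, between Fadd and Cflar, and between neighbours among the lowest 3 genes, while the other neighbours were separate. In aggressive AML, Mlkl stood first on this scale at 53.6 ± 4.62, followed by Casp8 at 48.01 ± 3.35 and Tnfrsf1a at 33.6 ± 5.73, and the ranges of Mlkl and Casp8 overlapped. RNA of the machinery from Casp8 to Mlkl was therefore present in both groups, and the receptors Fas and Tnfrsf10b were the lowest in aggressive AML. Protein was not measured. The Cflar level is divided by an exon length of 12669 bases, the longest of the set, and would be higher on a shorter transcript.

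Ratios of these levels were formed within a library. Cflar to Casp8 was 0.154, 0.157, 0.131 and 0.148 in new AML and 0.136, 0.145, 0.134 and 0.164 in aggressive AML, and the groups overlapped. Mlkl to Ripk3 was 1.36, 1.99, 1.75 and 1.61 against 1.58, 1.66, 1.81 and 2.09, and also overlapped. Ripk3 to Casp8 was 0.519, 0.395, 0.455 and 0.458 in new AML and 0.613, 0.647, 0.704 and 0.559 in aggressive AML. This ratio did not overlap between the groups, and its mean was 1.38 times as high in aggressive AML. It had to be separate, because Ripk3 lay higher and Casp8 lower in each aggressive AML library than in any new one. Neither gene was called. The ratios are descriptions, without a test.

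**Figure D3:**
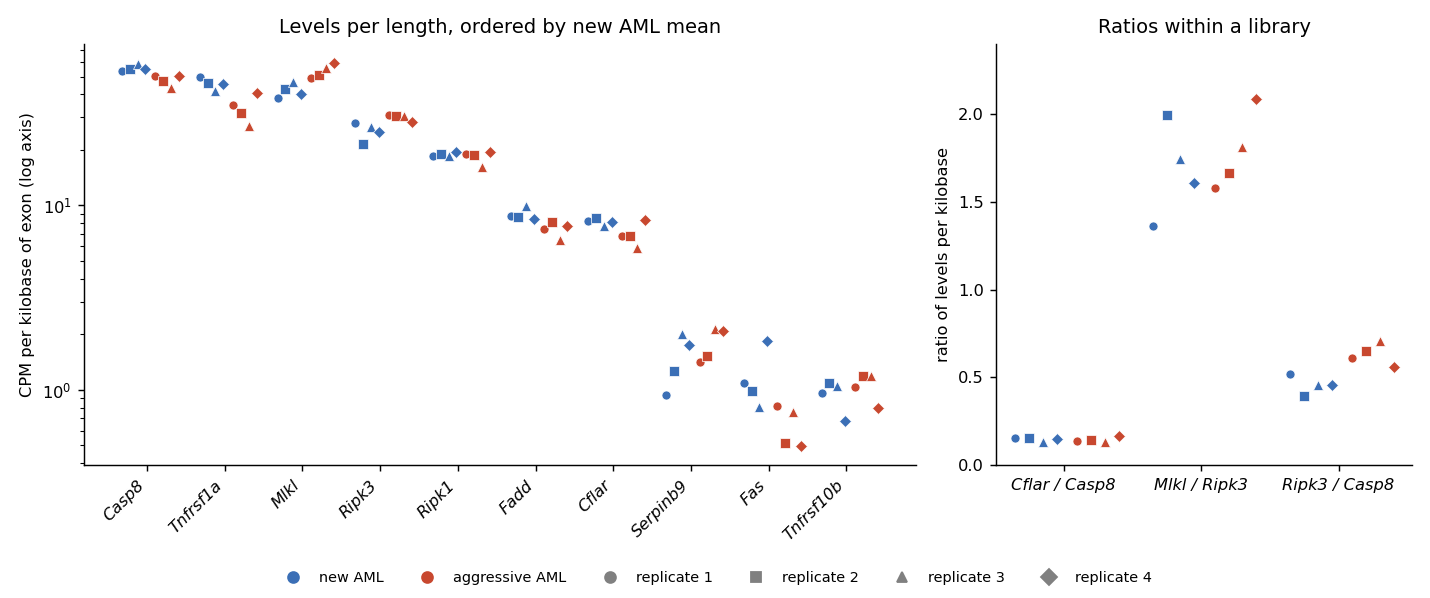
Left, CPM per kilobase of exon (log axis) of the 10 genes in each library, ordered by the new AML mean. Right, ratios of these levels within a library, from 0. Symbols mark replicates and colours the groups. Casp8, Tnfrsf1a and Mlkl lie highest and Fas, Tnfrsf10b and Serpinb9 lowest. Ripk3 to Casp8 separates the groups, as Ripk3 and Casp8 each do alone.

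The libraries of aggressive AML differed among themselves. Replicate 3 was the lowest of all 8 libraries in 5 of the 10 genes, Tnfrsf1a, Fadd, Casp8, Cflar and Ripk1, and the highest in Serpinb9. Replicate 4 was the highest of its group in 5 genes, Tnfrsf1a, Casp8, Cflar, Ripk1 and Mlkl, and had 926 counts for both Tnfrsf1a and Cflar. Without replicate 3 the log2 fold changes of Fadd, Casp8 and Cflar were -0.19, -0.16 and -0.15, and none of them was called. Over the 10 genes the summed level was 739.3 to 751.9 CPM in new AML and 644.5 to 764.2 CPM in aggressive AML.

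The genes whose profile over the 8 libraries was most like that of Tnfrsf1a were Cnnm3, Nfya and Slc35b4, with Pearson's r of log2(CPM + 1) of 0.989, 0.989 and 0.986. For Mlkl they were Il33, Bzw1 and Zfp407, with r of 0.985, 0.975 and 0.971. The 8 points share the difference between the groups, and a table of 12494 genes holds many such profiles, so that these values are descriptions. Il33, an alarmin of the interleukin-1 family, measured only 0.979 and 2.31 CPM on average in the groups.

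The other genes of the pathway were taken from 5 lists by function. Of 65 tested genes in these lists, 2 were called higher and 6 lower, together 12.3%, against 18.4% of all tested genes, and their median log2 fold change was -0.068. Among ligands and other receptors, 1 of 9 tested genes was called. Tnfsf12, the ligand TWEAK, fell from 2.36 ± 0.151 to 0.815 ± 0.281 CPM (SD, n = 4 each), a log2 fold change of -1.52 (adjusted p = 0.00682). It shares its locus with the read-through gene Tnfsfm13, and with limma on log2(CPM + 1), which shrinks low genes, the value was -0.90. Tnf (11.5 ± 3.33 and 12.9 ± 3.54 CPM), Tnfsf10, which encodes TRAIL (9.58 ± 1.62 and 7.59 ± 1.98 CPM), and the second TNF receptor Tnfrsf1b (68.8 ± 5.06 and 59.1 ± 5.36 CPM) were not called, at adjusted p-values of 0.619, 0.282 and 0.115. Fasl was not analysed here. The most abundant uncalled gene of this list was Ltbr, at 70.9 and 67.6 CPM.

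In the TNF receptor signalling complex, 3 of 24 genes were called, each of them lower. They were Rnf31, the catalytic subunit of the linear ubiquitin ligase LUBAC (50.2 ± 4.01 to 36.0 ± 7.73 CPM, log2 fold change -0.48, adjusted p = 0.0248), Spata2, which links the deubiquitinase Cyld to LUBAC (38.2 ± 3.21 to 28.7 ± 4.68 CPM, -0.41, 0.0327), and the deubiquitinase Usp21 (40.02 ± 5.65 to 31.0 ± 2.33 CPM, -0.37, 0.0378). The calls were fragile. In the 8 fits that left out 1 library Rnf31 was called in 6, Spata2 in 2 and Usp21 in 3, and without new AML replicate 1 no gene of this list was called, with adjusted p-values up to 0.0741 for Rnf31. Rnf31 overlaps Irf9 and Spata2 overlaps Rnf114, so that reads may be shared. The other LUBAC subunits Sharpin and Rbck1 had log2 fold changes of -0.060 and -0.071, and the inhibitors of apoptosis Birc2 and Birc3 of -0.0995 and -0.14, with no call. Mapkapk2, which phosphorylates Ripk1, was the most abundant gene of the list, at 537.1 and 596.1 CPM.

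Among the genes of the death-inducing complex and the executioner caspases, 1 of 16 was called. Xiap, an inhibitor of caspases on the X chromosome, fell from 129.6 ± 13.6 to 104.6 ± 10.7 CPM (log2 fold change -0.31, adjusted p = 0.0342), and was called in 4 of the 8 fits that left out 1 library, with the highest adjusted p of 0.115 without new AML replicate 4. Bid, the caspase-8 substrate that carries the signal to mitochondria and the most abundant uncalled gene of the list, measured 184.3 ± 7.20 and 186.8 ± 6.17 CPM (log2 fold change 0.019, adjusted p = 0.868).

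Of 14 tested necroptosis partners, 1 was called lower and 1 higher. Zbp1, a sensor of Z-form nucleic acids that activates Ripk3 and is itself an interferon-stimulated gene, measured 7.59, 7.61, 32.6 and 8.69 CPM in new AML and 2.53, 2.71, 3.11 and 3.30 CPM in aggressive AML. The groups did not overlap, and new AML replicate 3 was far above the rest. The log2 fold change was -2.27 (adjusted p = 0.00247) and -1.45 without that library (adjusted p = 0.000692). Pgam5, a mitochondrial phosphatase linked to the necrosome, rose from 58.7 ± 2.54 to 70.5 ± 4.82 CPM (log2 fold change 0.26, adjusted p = 0.0404). This call was kept in 1 of the 8 fits that left out 1 library, with the highest adjusted p of 0.126 without aggressive AML replicate 2. Ticam1, the adaptor TRIF, measured 28.0 ± 4.52 and 20.4 ± 5.64 CPM (adjusted p = 0.102). Hsp90ab1, a chaperone subunit required by Ripk3 and Mlkl, was the most abundant of the list and differed by 0.10 on the log2 scale (adjusted p = 0.485).

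In the list of granzyme inhibitor serpins and granule proteins 2 of 12 genes were tested. Serpinb6a rose from 5.28 ± 1.09 to 10.1 ± 2.31 CPM (log2 fold change 0.93, adjusted p = 0.00744), was called in all 8 fits that left out 1 library, and overlaps Ripk1 and Nqo2 on the other strand. Serpinb1a, an inhibitor of neutrophil proteases, measured 351.6 ± 57.6 and 442.0 ± 57.5 CPM, a log2 fold change of 0.33 that missed the threshold (adjusted p = 0.0548), although 4 alternatives called it, both that use DESeq2 and the fits without new AML replicate 3 or aggressive AML replicate 3.

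**Figure D4:**
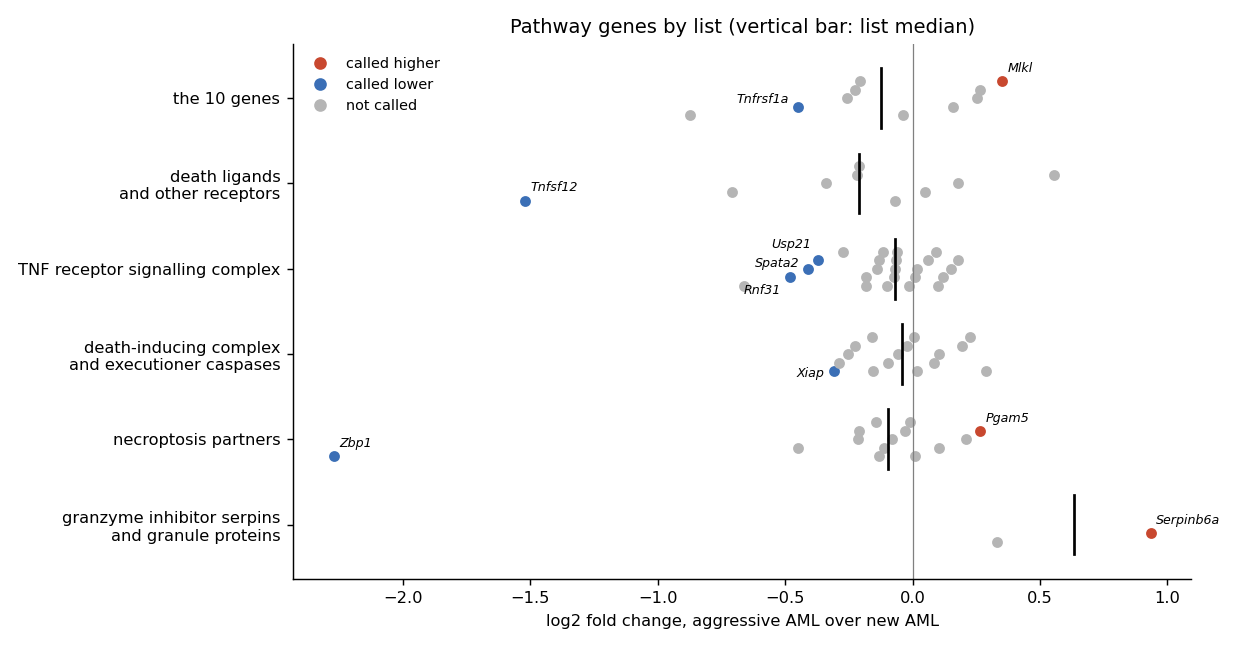
Log2 fold change of aggressive AML over new AML (x axis) for every tested gene of the 10-gene set and of the 5 pathway lists (y axis). Each point is a gene, coloured where called, with the called genes named, and the vertical bar is the median of the list. The calls are few in each list, and Zbp1 at -2.27 and Tnfsf12 at -1.52 lie farthest from 0.

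Mlkl and several of the other genes are known as interferon-inducible, so a list of 20 interferon-stimulated genes was set beside them. Of these, 17 were tested and 15 were called lower, with a median log2 fold change of -1.04, which was -0.80 with 12 called without new AML replicate 3. Their summed level was 601.4, 530.6, 954.5 and 653.9 CPM in new AML and 343.7, 364.1, 335.5 and 398.1 CPM in aggressive AML. Mlkl went the other way, and without new AML replicate 3, which had both the highest interferon sum and the highest Mlkl of its group, its log2 fold change was 0.41 (adjusted p = 0.00690). The interferon-inducible Zbp1 fell together with this list.

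**Figure D5:**
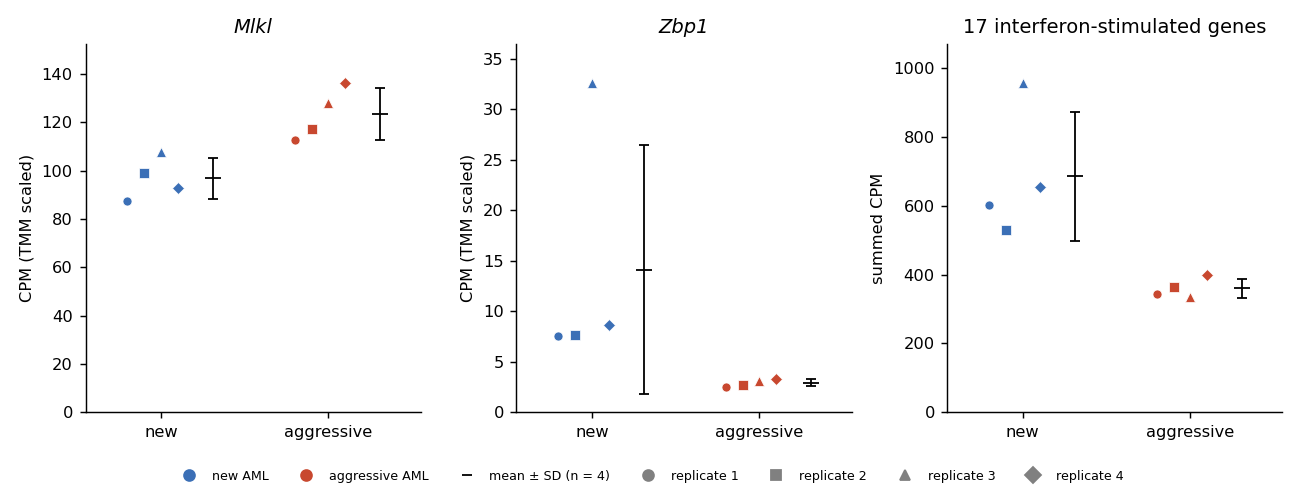
Mlkl, Zbp1 and the summed level of the tested interferon-stimulated genes in each library (y axes from 0, CPM scaled by TMM factors), with symbols for the replicates and bars for the mean ± SD (n = 4). Mlkl lies higher in all 4 aggressive AML libraries, while Zbp1 and the sum lie lower in them, and new AML replicate 3 is highest of all in both.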

How the data were processed

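RNA was measured in 8 libraries of sorted MLL-AF9 leukemia cells. The authors purified polyadenylated RNA, aligned read pairs to mm10 with HISAT2, counted reads per gene with Rsubread and removed genes under 1 CPM. Gene annotation and strand setting are not given in the sources used here. The deposited values are whole-number read counts with a different total in each library, although the table is named for CPM.

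Counts were tested in R 4.3.3 with edgeR 4.0.16 (quasi-likelihood fit, TMM factors, group as the only term) on the 12494 genes that reached 1 CPM in 4 or more libraries. P-values were two-sided and adjusted after Benjamini-Hochberg over all tested genes, and a call is an adjusted p under 0.05. Intervals are 95% and unadjusted, and SEs come from the F statistic. Alternatives were DESeq2 (version 1.42.0) size factors and test, limma (version 3.58.1) on log2(CPM + 1), no filter, a replicate block and leaving out each library.

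The members and lists were chosen with earlier results of these data known. Every member was named. Genes of the lists were named where called, with the most abundant uncalled gene of a list, and any other was chosen after its values were seen. Coordinates come from GENCODE M21 (GRCm38, the build of mm10). The code of the fit was run on simulated counts with known changes. These had the same dispersion for all genes and no shift of single libraries, so that the run does not bear on the calls given here. The replicates are called biological and the study gives 4 per group from male mice, without saying how each library was tied to a mouse, so that p-values measure the spread between these libraries. Values of some single genes of the lists are not reported here.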

Additional observations from a re-analysis of the deposited data

Results flagged for a closer look

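Each group of 4 libraries was searched for a value set apart from the other 3 by Dixon's criterion, over the 10 genes, 3 ratios and 6 list sums, which makes 38 groups. Chance alone sets apart about 1 group in 20, and 3 were found, each of them the lowest value in aggressive AML replicate 4. Ripk3 measured 64.9 CPM there against 70.1 to 71.1 CPM in the other 3 libraries of the group, and its log2 fold change was 0.29 without this library (adjusted p = 0.0636). The summed level of the TNF receptor signalling complex list was 2113 CPM against 2183 to 2197 CPM. The summed level of the necroptosis partners was 5299 CPM against 5748 to 5823 CPM, and most of this gap was the single gene Hsp90ab1, at 3090.0 CPM against 3510.0 to 3580.5 CPM.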

How the results depend on the processing

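Over 13 alternatives, 128 of 130 log2 fold changes of the 10 genes kept their direction and their side of the threshold. The exceptions were Cflar, called without aggressive AML replicate 4, and Ripk1, which turned to 0.021 (adjusted p = 0.872) without aggressive AML replicate 3 and ranged from -0.064 to 0.021 when 1 library was left out. Most of the 130 values belong to genes uncalled in the main fit, for which staying uncalled says little about a call. The 2 called genes, Tnfrsf1a and Mlkl, had adjusted p-values of at most 0.0361 and 0.0446 over the alternatives. The number of called members was 2 to 3 in the fits that left out 1 library and 2 under every other setting. Called genes in the whole table numbered 2296 and ranged from 1466 (without new AML replicate 2) to 2324 when 1 library was left out. Called genes of the 5 pathway lists numbered 8 and ranged from 4, without new AML replicate 1 or 2, to 9. Deviations of libraries from their group means, in log2(CPM + 1), were correlated between same-numbered libraries. The values were 0.097, -0.040, -0.065 and 0.20 for replicates 1 to 4. For 2 of the 4 new AML libraries the best match was the aggressive AML library of the same number. Whether same-numbered libraries are related was not settled by these values. With the replicate block 2367 genes were called, 2 of them members and 8 pathway genes. At this depth Fas, Tnfrsf10b and Serpinb9 rest on 9 to 64 counts per library, which leaves wide intervals.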
